A study of Mus musculus with 7 samples.

Results

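The 44 collagen genes of the mouse were described in hippocampal neurospheres of control mice and of mice with a conditional deletion of Med23 (Med23 CKO), a subunit of the Mediator complex of transcription. They are all rows of the deposited expression table whose gene symbol is Col, a number, the letter a and a number, and they are 44 of 24346 genes. The values come from 7 libraries, each from the neurospheres of 1 mouse of the C57/BL6 strain, labelled as primary neural stem cells (NSCs) of the hippocampus at 2 months of age. The 3 Med23 CKO mice (KO_117, KO_214 and KO_218) carried Nestin-CreER and Med23 flox/flox, so that tamoxifen removes loxP-flanked exons of Med23 in cells in which the Nestin promoter drives the Cre. The 4 controls (WT_116, WT_213, WT_215 and WT_220) are labelled wild type, and per the methods of the study control littermates were Med23 flox/+ or Med23 flox/flox without the Cre. Both groups received tamoxifen at 200 mg/kg by gavage daily for 5 days, followed by 3 to 4 weeks of recovery. The labels give 2 months as the age at tamoxifen, and the methods give a younger age for the culture experiment. Control values are given below in the order WT_116, WT_213, WT_215, WT_220 and Med23 CKO values in the order KO_117, KO_214, KO_218. The values are FPKM, fragments scaled for transcript length and for the mapped fragments of the library, so levels can be compared between genes.

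Collagens are matrix proteins made of 3 chains that wind around each other in a triple helix, and a chain can take part in this helix where glycine recurs as 1 amino acid in 3. Fibrillar collagens such as types I, III and V form the fibres of connective tissue, collagen IV forms the network of basement membranes, collagen VI forms beaded filaments, and fibril-associated collagens sit on the surface of fibres. In the brain, fibrillar collagens are found mainly in the meninges and around vessels, and collagen IV in the basement membrane of vessels, where endothelial cells, pericytes and astrocytes contribute matrix.

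The repeat that defines the family was read from the coding sequences of all 44 genes in GENCODE M21 on GRCm38, taking the transcript with the longest coding sequence. Glycine is encoded by GGN, where N is any base, so a helical stretch shows GGN as 1 codon in 3. The longest unbroken run of such 3-codon units was 344 units in Col3a1 and between 216 and 344 units in the 11 fibrillar genes. In the 6 collagen IV genes the longest run was 39 to 66 units, and in Col18a1 and Col15a1 it was 30 units. Many of these exons are 54 bases long and hold 6 whole units. Of 2004 coding exons of the 44 genes, 469 had 54 bases (23.4%), against 1343 of 198362 coding exons of all 21760 protein-coding genes (0.677%). Each fibrillar gene had between 21 and 33 exons of this length and each collagen IV gene between 1 and 3. The lines that follow show the first 54-base exon of whole units in 4 members whose levels are described below, to make the shared unit visible; the capitals mark the GGN codons. The exons lie at chr6:4515481-4515534 on the forward strand (coding exon 8 of Col1a2), chr1:45325360-45325413 on the forward strand (coding exon 6 of Col3a1), chr8:11245211-11245264 on the reverse strand (coding exon 7 of Col4a1) and chr2:180601582-180601635 on the forward strand (coding exon 5 of Col9a3).
Col1a2: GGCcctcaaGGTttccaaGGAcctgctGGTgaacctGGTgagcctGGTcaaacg
Col3a1: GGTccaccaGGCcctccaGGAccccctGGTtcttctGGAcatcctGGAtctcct
Col4a1: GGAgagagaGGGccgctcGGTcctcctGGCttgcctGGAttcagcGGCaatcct
Col9a3: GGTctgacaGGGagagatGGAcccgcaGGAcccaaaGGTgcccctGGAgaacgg

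**Figure D1:**
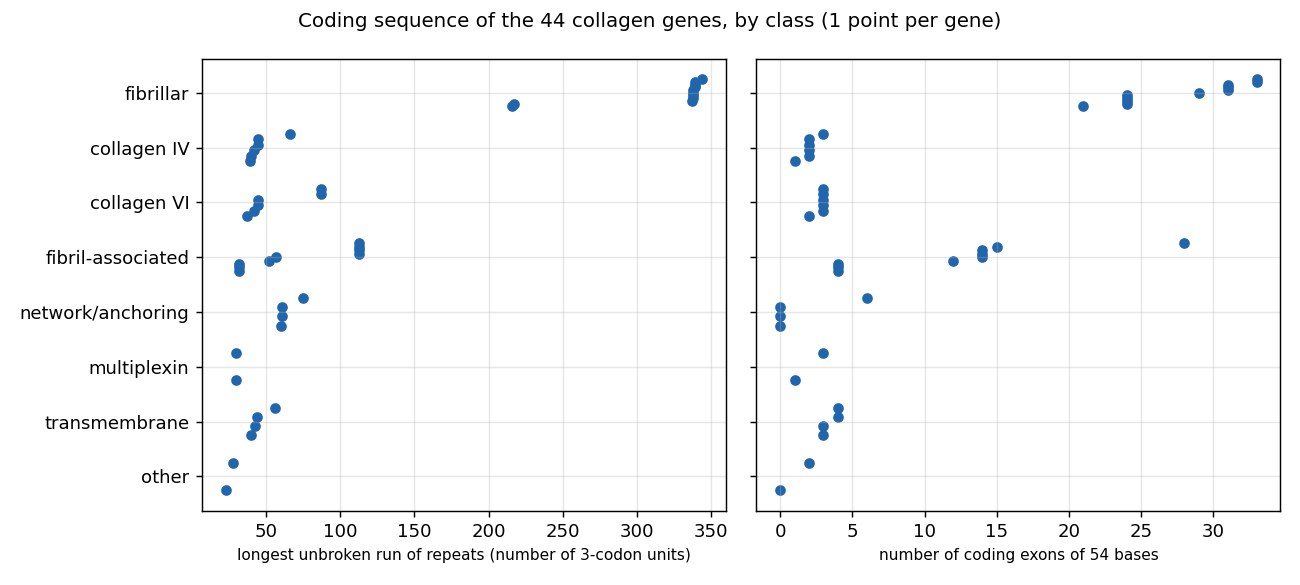
Longest unbroken run of 3-codon units starting with GGN (left, number of units) and number of coding exons of 54 bases (right) for each of the 44 collagen genes, 1 point per gene, by class. The 11 fibrillar genes lie at 216 units or more in the left panel, and every other gene lies at 113 units or fewer.

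Across the whole table, between 16841 and 18113 genes were above 0 in a library, and the correlation of log2(FPKM + 1) between libraries ranged from 0.788 to 0.979. Read depth is unknown. Med23 had 10.3, 12.9, 11.4 and 10.1 FPKM in the controls and 9.97, 9.27 and 8.12 FPKM in the Med23 CKO libraries, every Med23 CKO value below every control value (log2 fold change -0.26, SE 0.18, exact permutation p = 0.0571, two-sided). The FPKM value counts reads of all Med23 exons, those that tamoxifen leaves in place too. The markers listed for neural stem cells and astrocytes were above 0 in every library, all 10 of 10, with summed levels between 1894 and 3836 FPKM in the controls and 3832, 2085 and 2174 FPKM in KO_117, KO_214 and KO_218. Library KO_214 had the highest sums of 3 lists of markers of other cell types. The 12 microglia and macrophage markers summed to between 43.6 and 221 FPKM in the controls and 44.5, 807 and 168 FPKM in KO_117, KO_214 and KO_218. The 11 mural cell markers summed to between 29.5 and 151 FPKM in the controls and 18.7, 489 and 99.3 FPKM in KO_117, KO_214 and KO_218, and the 10 endothelial markers to between 15.0 and 87.9 FPKM in the controls and 15.4, 149 and 50.1 FPKM in KO_117, KO_214 and KO_218. The 12, 11 and 10 markers of these 3 lists were above 0 in all 7 libraries. The 10 fibroblast markers summed to between 47.9 and 104 FPKM in the controls and 296, 129 and 143 FPKM in KO_117, KO_214 and KO_218, with Thy1, which neurons also express, holding 243 FPKM of the sum in KO_117; Dpt and Mfap5 were listed at 0 in KO_117, WT_116 and WT_215, and one of them in WT_213 and WT_220. In such bulk libraries, fewer cells of a type and less RNA per cell cannot be told apart.

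No collagen gene was called different between Med23 CKO and control by the tests used here, and the values of both groups overlapped for all 29 genes tested. The shares of all genes that were called or separated, given below, are so low that 0 of 29 does not set the members apart. Of the 44 members, 29 had a mean of at least 0.5 FPKM over the 7 libraries and were tested within a fit of limma to all 14151 such genes on log2(FPKM + 1). At an adjusted p under 0.05, 0 of the 29 members passed, and 0 of 14151 genes. At an unadjusted p under 0.05, 0 members were higher and 0 lower, where 0.502% of all genes tested were higher and 0.996% lower, 1.5% in all. The 3 Med23 CKO values lay on one side of the 4 control values for 0 of the 29 members, which held for 0.784% (above) and 1.53% (below) of all genes tested. An exact permutation test, with 35 ways to assign the labels and a smallest p of 0.0286, gave p under 0.05 for 0 members and for 1.26% of all genes tested. The median log2 fold change of the 29 members was 0.20, beside -0.03 over all genes tested, and the log2 fold change was above 0 for 19 of the 29 (65.5%, against 43.8% of all genes tested).

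The library KO_214 stood above the others in most members. KO_214 held the highest value of 19 of the 29 members, as it did for 25.4% of all genes tested. One of the 19, Col1a1, passed the filter on the mean only through KO_214. WT_220 held that of 5 members (15.1% of all genes), WT_213 of 2 (6.61%), WT_215 of 1 (6.54%), WT_116 of 1 (15.4%), KO_117 of 1 (23.6%) and KO_218 of 0 (7.33%). The lowest value was in Med23 CKO mouse KO_117 for 11 members and in control WT_220 for 7. The FPKM of all 44 members added up to 127, 181, 178 and 195 in the controls and 152, 624 and 118 in the Med23 CKO libraries. Without KO_214, the median log2 fold change of the 28 members then tested was -0.26 (-0.06 over all genes), and 2 of the 28 were above 0, Col4a1 and Col28a1. The sum of KO_214 was above those of the other 6 libraries, among which the groups overlapped.

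**Figure D2:**
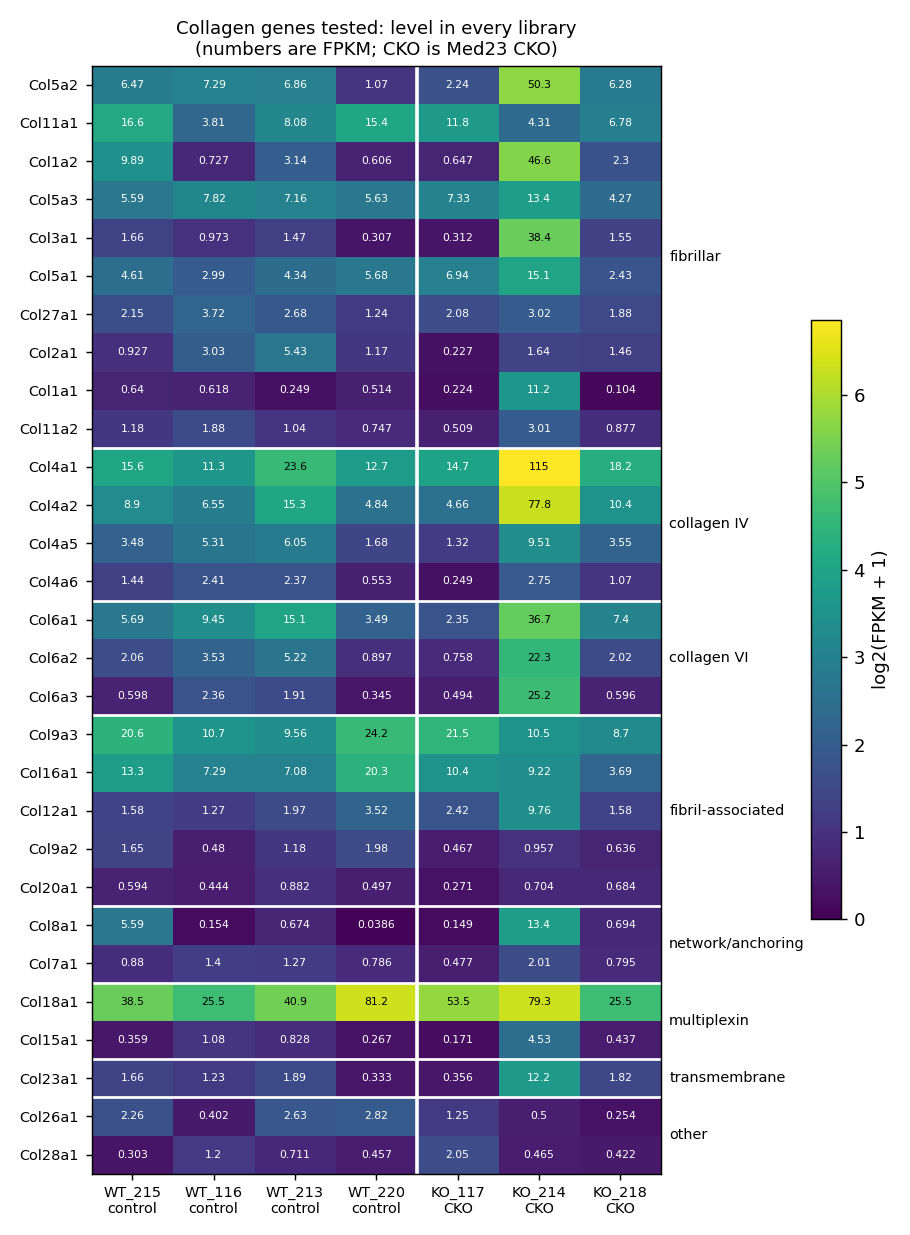
Level of the 29 collagen genes tested (rows, by class) in the 7 libraries (columns, 4 control and 3 Med23 CKO). Colour gives log2(FPKM + 1) and each cell gives the FPKM; the column of KO_214 is brightest for most fibrillar, collagen IV and collagen VI genes, and not for Col9a3, Col16a1 or Col11a1.

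Among the fibrillar genes, the chains of types I, III and V were highest in KO_214. Those of types I and III were low in most other libraries. Col3a1, the single chain of type III collagen, lies on chromosome 1 from 45311538 to 45349706 (GRCm38, RefSeq) and had 0.973, 1.47, 1.66 and 0.307 FPKM in the controls and 0.312, 38.4 and 1.55 FPKM in the Med23 CKO libraries. The control values and the other two Med23 CKO values covered the same range, and the value of KO_214 was 23.2 times the next. Its log2 fold change was 1.33 (SE 1.06, exact permutation p = 0.371) and -0.15 without KO_214. Col1a2, on chromosome 6 from 4505618 to 4541543, encodes the second chain of type I collagen and had 0.727, 3.14, 9.89 and 0.606 FPKM in the controls and 0.647, 46.6 and 2.30 FPKM in the Med23 CKO libraries. Here control WT_215 was second highest, and the groups overlapped (log2 fold change 0.93, SE 1.20, exact permutation p = 0.600). Col1a1, which encodes the major chain of type I collagen, had 0.618, 0.249, 0.640 and 0.514 FPKM in the controls and 0.224, 11.2 and 0.104 FPKM in the Med23 CKO libraries. It was at most 0.640 FPKM outside KO_214, and it could not be tested without that library because its mean then fell under the limit. The ratio of Col1a2 to Col1a1 was 1.18, 12.6, 15.4 and 1.18 in the controls and 2.88, 4.15 and 22.2 in the Med23 CKO libraries. It ranged from 1.18 to 22.2. The 2 chains are used together in one molecule, but Col1a1 was at most 0.640 FPKM outside KO_214, so the ratios outside that library rest on low values.

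Type V collagen, which is built into type I fibres, was measured by 3 genes. Over all 7 libraries, the highest mean FPKM of the fibrillar genes was that of Col5a2, through its value in KO_214. Across the controls alone, Col11a1, described below, had the highest mean of these genes. Col5a2 lies on chromosome 1 from 45374331 to 45503282. It had 7.29, 6.86, 6.47 and 1.07 FPKM in the controls and 2.24, 50.3 and 6.28 FPKM in the Med23 CKO libraries. WT_220 was the lowest library and KO_214 the highest, and the other 5 lay between 2.24 and 7.29 FPKM. Its log2 fold change was 0.92 (SE 0.95, exact permutation p = 0.571), and -0.22 without KO_214. Col5a1 had 4.40 ± 1.11 FPKM across the controls (SD, n = 4) and 8.17 ± 6.44 FPKM across the Med23 CKO libraries (SD, n = 3), and Col5a3 had 6.55 ± 1.1 FPKM across the controls (SD, n = 4) and 8.34 ± 4.65 FPKM across the Med23 CKO libraries (SD, n = 3). Both were highest in KO_214, and their groups overlapped.

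Not all fibrillar genes had this order. Col11a1, a chain of type XI collagen that cartilage uses to start fibrils, lies on chromosome 3 from 114030479 to 114220756 and had 3.81, 8.08, 16.6 and 15.4 FPKM in the controls and 11.8, 4.31 and 6.78 FPKM in the Med23 CKO libraries. It was highest in WT_215, WT_220 and KO_117 and low in KO_214 and WT_116. The log2 fold change was -0.39 (SE 0.52, exact permutation p = 0.514). Col2a1, the main collagen of cartilage, had 2.64 ± 2.08 FPKM across the controls (SD, n = 4) and 1.11 ± 0.769 FPKM across the Med23 CKO libraries (SD, n = 3), a log2 fold change of -0.69 (SE 0.49, exact permutation p = 0.314). Col27a1 had 2.45 ± 1.04 FPKM across the controls (SD, n = 4) and 2.32 ± 0.610 FPKM across the Med23 CKO libraries (SD, n = 3), with overlapping groups. Col11a2, unlike these genes, was highest in KO_214 (3.01 FPKM), and its log2 fold change was -0.37 without that library. It had 1.21 ± 0.482 FPKM across the controls (SD, n = 4) and 1.47 ± 1.35 FPKM across the Med23 CKO libraries (SD, n = 3), with overlapping groups. The median log2 fold change of the 10 fibrillar genes tested was 0.36, and -0.18 for the 9 tested without KO_214.

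Collagen IV, the basement membrane network, was carried by Col4a1 and Col4a2, whose chains join in one molecule. Col4a1, on chromosome 8 from 11198423 to 11312889, had 11.3, 23.6, 15.6 and 12.7 FPKM in the controls and 14.7, 115 and 18.2 FPKM in the Med23 CKO libraries. The 2 other Med23 CKO libraries lay within the range of the controls. The log2 fold change was 1.01 (SE 0.68, exact permutation p = 0.257) and 0.10 without KO_214. Col4a2, on chromosome 8 from 11312805 to 11449287, had 6.55, 15.3, 8.90 and 4.84 FPKM in the controls and 4.66, 77.8 and 10.4 FPKM in the Med23 CKO libraries. Its lowest values were in KO_117 and WT_220 and its highest in KO_214 and WT_213. The log2 fold change was 0.91 (SE 0.85, exact permutation p = 0.514) and -0.19 without KO_214. The ratio of Col4a2 to Col4a1 was 0.580, 0.646, 0.569 and 0.382 in the controls and 0.316, 0.677 and 0.575 in the Med23 CKO libraries. It was lowest in KO_117 and WT_220 and between 0.569 and 0.677 in the other 5 libraries. Col4a5 and Col4a6, the X-linked pair, were low, with 4.13 ± 1.96 FPKM across the controls (SD, n = 4) and 4.80 ± 4.23 FPKM across the Med23 CKO libraries (SD, n = 3) for Col4a5 and 1.70 ± 0.884 FPKM across the controls (SD, n = 4) and 1.36 ± 1.28 FPKM across the Med23 CKO libraries (SD, n = 3) for Col4a6. Col4a6 was below 3 FPKM in all 7 libraries.

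The collagen IV genes lie in head-to-head pairs, and the annotated spans of Col4a1 and Col4a2 overlap by 85 bases on chromosome 8. The kit named in the methods was not stated to keep strand, so fragments of the overlap cannot be assigned to one of them, although 85 bases are a small part of either transcript. In the RefSeq promoter windows (GRCm38.p6, 250 bases before to 50 after the start used), the starts of Col4a1 and Col4a2 lie 21 bases apart. Their windows share 78 bases. The start used for the Col4a1 window lies inside its annotated span, which ends at 11312889, so this distance does not match the overlap of 85 bases. KO_214 held the highest value of both genes, as it did for 19 of the 29 members tested. The window of Col4a1, at chr8:11312777-11313076 on the reverse strand, is printed because the 2 genes share part of it. Capitals mark the 78 bases shared with the window of Col4a2.
Col4a1: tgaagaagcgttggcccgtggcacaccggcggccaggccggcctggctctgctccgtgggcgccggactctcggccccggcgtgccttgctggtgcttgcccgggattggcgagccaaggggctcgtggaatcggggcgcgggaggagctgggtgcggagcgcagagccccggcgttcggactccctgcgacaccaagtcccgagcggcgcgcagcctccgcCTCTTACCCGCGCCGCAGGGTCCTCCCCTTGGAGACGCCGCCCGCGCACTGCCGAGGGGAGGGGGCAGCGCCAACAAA

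Promoter windows were found for 35 of the 44 members. Those of Col1a2, at chr6:4505368-4505667, and Col3a1, at chr1:45311288-45311587, both on the forward strand, are shown because they differ in composition. Both genes were highest in KO_214, as were 19 of the 29 members tested. Capitals mark the motifs that were searched on either strand. The first was the CCAAT box, searched as those letters. The second was the GC box, searched as GGGCGG. The last was the TATA box, searched as TATAAA. No match overlapped another in either window.
Col1a2: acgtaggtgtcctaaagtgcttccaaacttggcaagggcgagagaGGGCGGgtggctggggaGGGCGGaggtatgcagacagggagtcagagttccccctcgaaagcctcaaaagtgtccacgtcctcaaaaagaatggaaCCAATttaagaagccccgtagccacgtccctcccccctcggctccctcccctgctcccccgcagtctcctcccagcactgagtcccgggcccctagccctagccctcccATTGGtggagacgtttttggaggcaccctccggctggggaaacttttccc
Col3a1: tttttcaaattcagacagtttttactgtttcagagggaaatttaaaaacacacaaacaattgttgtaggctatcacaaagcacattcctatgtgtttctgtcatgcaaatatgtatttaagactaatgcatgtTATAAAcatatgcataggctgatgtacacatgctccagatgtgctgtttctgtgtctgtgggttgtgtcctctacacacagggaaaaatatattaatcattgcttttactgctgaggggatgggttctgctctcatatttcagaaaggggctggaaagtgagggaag
The Col1a2 window had 61.0% G and C and held GGGCGG and CCAAT, and the Col3a1 window had 37.7% and held TATAAA. Of 38 windows of the 35 members, 23 held GGGCGG (60.5%), 13 CCAAT (34.2%) and 5 TATAAA (13.2%). Of all 32851 windows in the table, 35.7% held GGGCGG, 37.4% CCAAT and 13.6% TATAAA. These are matches of letters and say nothing on whether a factor binds there.

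Collagen VI, the beaded filament collagen made by fibroblasts and other connective tissue cells, had 6 genes in the table, of which 3 were tested. Col6a1, on chromosome 10 from 76708792 to 76726044, had 9.45, 15.1, 5.69 and 3.49 FPKM in the controls and 2.35, 36.7 and 7.40 FPKM in the Med23 CKO libraries. KO_214 was highest, WT_213 second and KO_117 lowest, so that the extremes were both Med23 CKO libraries. The log2 fold change was 0.27 (SE 0.81, exact permutation p = 0.800), and -0.67 without KO_214. Col6a2 had 3.53, 5.22, 2.06 and 0.897 FPKM in the controls and 0.758, 22.3 and 2.02 FPKM in the Med23 CKO libraries (log2 fold change 0.48, SE 0.87, exact permutation p = 0.800). Col6a3, a longer chain of the same molecule, had 2.36, 1.91, 0.598 and 0.345 FPKM in the controls and 0.494, 25.2 and 0.596 FPKM in the Med23 CKO libraries. Relative to Col6a1, Col6a3 was at 0.250, 0.126, 0.105 and 0.0988 in the controls and 0.210, 0.687 and 0.0806 in the Med23 CKO libraries. Its ratio was highest in KO_214, and its log2 fold change was 0.89 (SE 1.0, exact permutation p = 0.714) with that library and -0.47 without it. The median log2 fold change of the 3 genes tested was 0.48, and -0.63 without KO_214.

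Among the 5 fibril-associated collagens tested, Col9a3 and Col16a1 had the highest mean levels and the same 3 highest libraries, which the other 3 genes did not share. Col9a3, a chain of type IX collagen, lies on chromosome 2 from 180598102 to 180622192 and had 10.7, 9.56, 20.6 and 24.2 FPKM in the controls and 21.5, 10.5 and 8.70 FPKM in the Med23 CKO libraries. WT_220, KO_117 and WT_215 were the 3 highest libraries, and the groups overlapped (log2 fold change -0.24, SE 0.42, exact permutation p = 0.629). Col16a1, on chromosome 4 from 130047817 to 130099277, had 7.29, 7.08, 13.3 and 20.3 FPKM in the controls and 10.4, 9.22 and 3.69 FPKM in the Med23 CKO libraries. The same 3 libraries were highest, and KO_218 was lowest (log2 fold change -0.55, SE 0.45, exact permutation p = 0.343). Col9a2, which encodes another chain of type IX, had 0.480, 1.18, 1.65 and 1.98 FPKM in the controls and 0.467, 0.957 and 0.636 FPKM in the Med23 CKO libraries. It was highest in WT_220 and WT_215 but lowest in KO_117, where Col9a3 was second highest (log2 fold change -0.42, SE 0.28, exact permutation p = 0.171). Col20a1 was also lowest in KO_117 and had 0.604 ± 0.195 FPKM across the controls (SD, n = 4) and 0.553 ± 0.245 FPKM across the Med23 CKO libraries (SD, n = 3). Col12a1 was highest in KO_214 at 9.76 FPKM and had 2.08 ± 0.996 FPKM across the controls (SD, n = 4) and 4.59 ± 4.5 FPKM across the Med23 CKO libraries (SD, n = 3). The 5 genes tested in this class had a median log2 fold change of -0.24, 1 of them above 0.

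**Figure D3:**
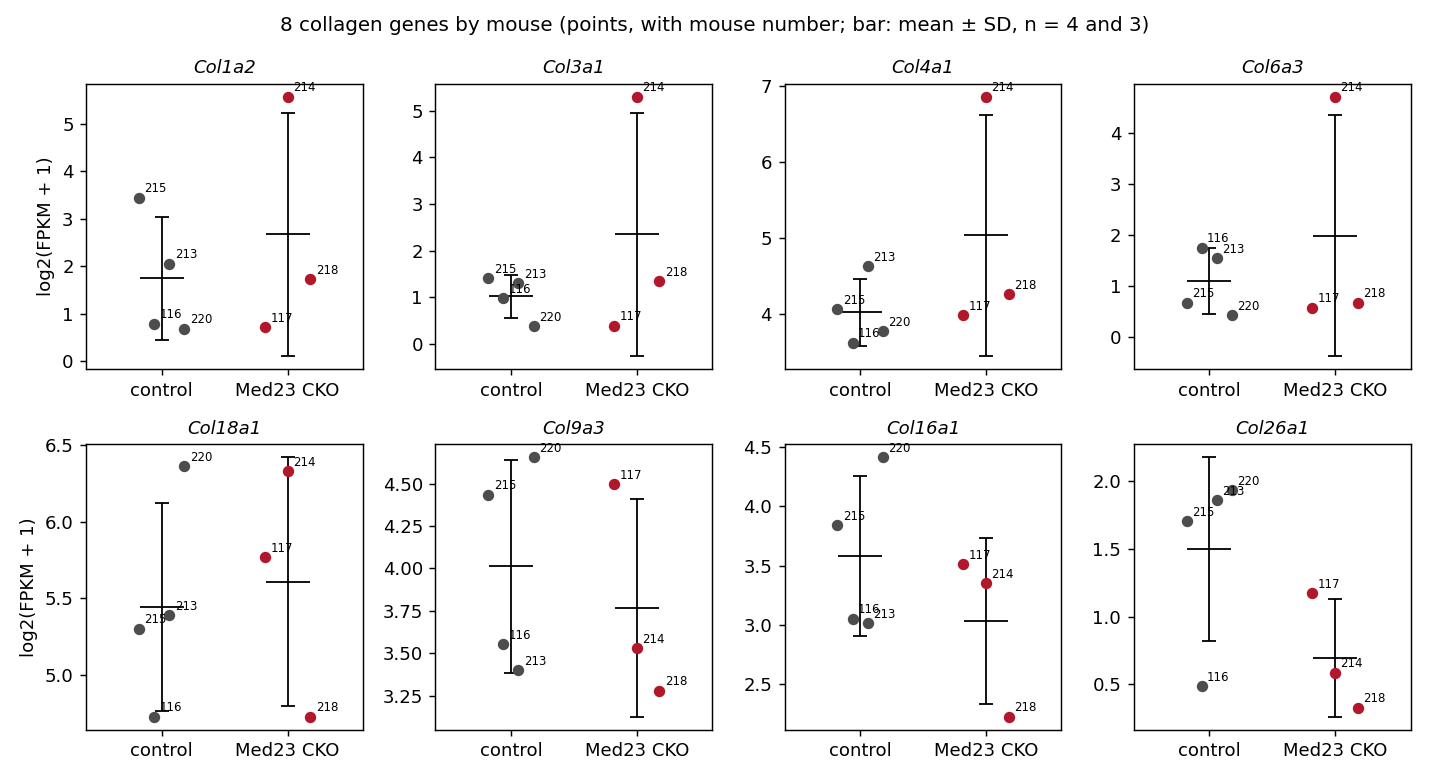
Level of 8 collagen genes as log2(FPKM + 1), 1 point per mouse with its number, control in grey and Med23 CKO in red; the horizontal bar is the mean and the whiskers the SD (n = 4 and n = 3). In the top row KO_214 lies above the 6 others, and in the bottom row KO_218 is the lowest or next to the lowest point for all 4 genes.

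Col18a1 was the collagen gene with the highest mean level in these neurospheres. It is a multiplexin, a proteoglycan of basement membranes whose end piece is known as endostatin, lies on chromosome 10 from 77052178 to 77166530 and had 25.5, 40.9, 38.5 and 81.2 FPKM in the controls and 53.5, 79.3 and 25.5 FPKM in the Med23 CKO libraries. It made up between 12.7% and 41.7% of the summed collagen FPKM of a library. WT_220 and KO_214 were highest and WT_116 and KO_218 lowest, 1 of each group at either end (log2 fold change 0.16, SE 0.48, exact permutation p = 0.714). The other multiplexin, Col15a1, was below 1.1 FPKM in 6 libraries and at 4.53 FPKM in KO_214 (log2 fold change 0.39, SE 0.53).

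The remaining members were low. Col8a1, a short-chain network collagen of vessel walls, had 0.154, 0.674, 5.59 and 0.0386 FPKM in the controls and 0.149, 13.4 and 0.694 FPKM in the Med23 CKO libraries, with WT_215 next to KO_214. Col7a1, the anchoring fibril collagen of skin, had 1.08 ± 0.298 FPKM across the controls (SD, n = 4) and 1.09 ± 0.810 FPKM across the Med23 CKO libraries (SD, n = 3). Col23a1, a transmembrane collagen, had 1.23, 1.89, 1.66 and 0.333 FPKM in the controls and 0.356, 12.2 and 1.82 FPKM in the Med23 CKO libraries (log2 fold change 0.76, SE 0.72, exact permutation p = 0.429). It was the one transmembrane collagen of 4 that was tested. Col28a1 had 0.666 ± 0.391 FPKM across the controls (SD, n = 4) and 0.980 ± 0.930 FPKM across the Med23 CKO libraries (SD, n = 3) and its highest value, 2.05 FPKM, in KO_117.

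Col26a1 had the smallest limma p of the 29 members, 0.0865 unadjusted. It encodes a collagen with an EMI domain, lies on chromosome 5 from 136741759 to 136883376 and had 0.402, 2.63, 2.26 and 2.82 FPKM in the controls and 1.25, 0.50 and 0.254 FPKM in the Med23 CKO libraries. The 3 Med23 CKO values were below 3 of the control values, and the fourth control, WT_116, lay among them. Its log2 fold change was -0.80 (SE 0.41, exact permutation p = 0.143), and from -1.14 to -0.62 when single libraries were left out. It was below 3 FPKM in every library, so the scale with 1 added to FPKM understates its ratio.

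Calls among the members appeared when certain libraries were left out, at an unadjusted p under 0.05. With all limma fits repeated without KO_117, Col3a1 (log2 fold change 2.31) and Col23a1 (1.48) were higher and Col26a1 (-1.04) lower, among 2.54% of all genes higher and 2.88% lower. Without KO_218, Col5a1 (1.09) was higher, among 0.983% of all genes, and 0 members were lower (0.502%). Without WT_116, Col26a1 (-1.14) and Col9a2 (-0.62) were lower, among 1.42% of all genes, and 0 members were higher (0.319%). Without KO_214 0 members were called, where 0.559% of all genes were higher and 1.48% lower. The same count of 0 was found without WT_213 (0.474% higher and 0.7% lower), WT_215 (0.311% and 0.551%) and WT_220 (0.345% and 0.52%). With array weights, which let limma give libraries unequal weight, Col16a1 (-0.97) and Col26a1 (-1.18) were lower, among 6.27% of all genes, and 0 members were higher (1.36%). At an adjusted p under 0.05, 0 members passed with any library left out.

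**Figure D4:**
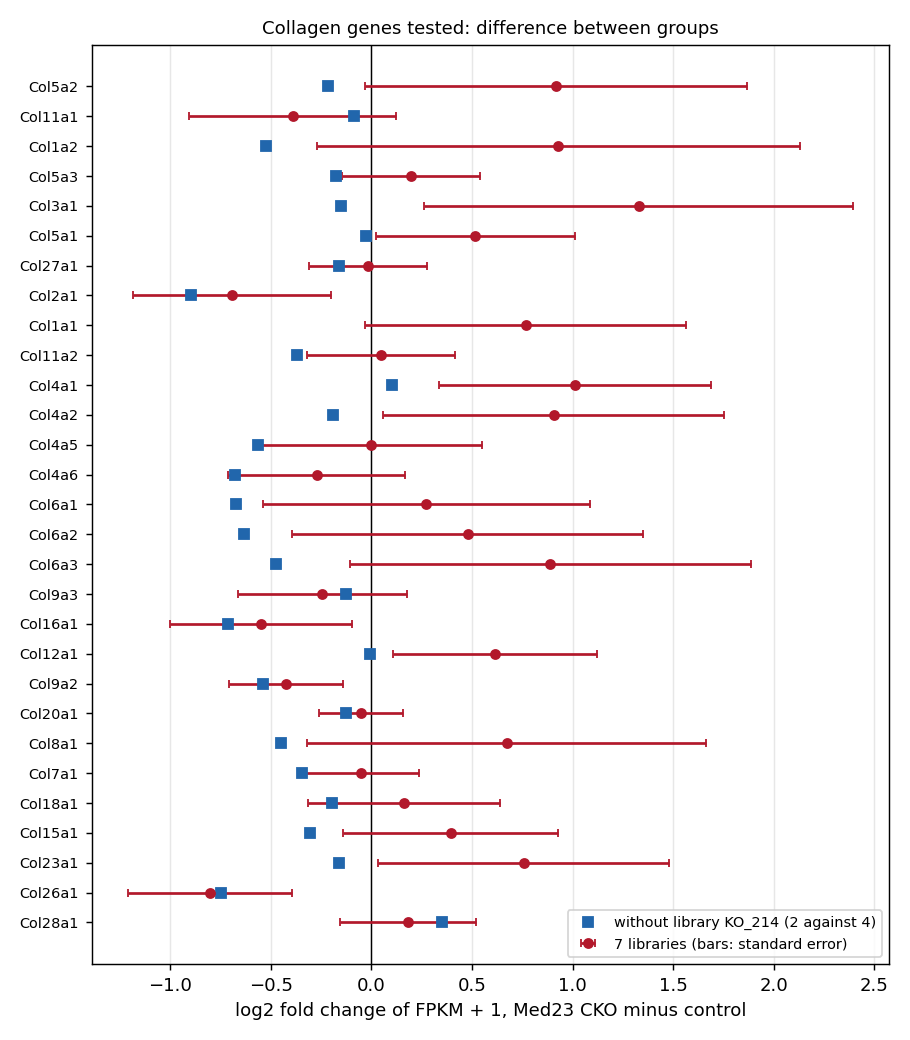
Log2 fold change of FPKM + 1, Med23 CKO minus control, for the 29 collagen genes tested: red points use all 7 libraries with bars for the standard error, and blue squares leave out KO_214 (no square for Col1a1, which then fell under the filter). The squares of all genes but Col4a1 and Col28a1 lie at or left of 0, whereas 19 red points lie to the right of 0.

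The other 15 members had a mean under 0.5 FPKM and were not tested. They are Col4a3, Col4a4, Col6a4, Col6a5, Col6a6, Col8a2, Col9a1, Col10a1, Col13a1, Col14a1, Col17a1, Col19a1, Col22a1, Col24a1 and Col25a1. The highest value in any library was 1.23 FPKM, of Col9a1 in WT_215, followed by 1.08 FPKM, of Col8a2 in KO_214. The highest mean was that of Col22a1, 0.400 FPKM. Col10a1, the collagen of hypertrophic cartilage, was listed at 0 in 4 libraries, and Col6a5 and Col6a6 in 3 each. Col24a1 had 0.344 FPKM in KO_214 and at most 0.0333 FPKM elsewhere.

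Genes that make and fold collagen were measured at high levels in both groups. Of 20 genes for collagen synthesis and secretion, all tested, 20 had a log2 fold change above 0, and 13 did without KO_214. Their median log2 fold change was 0.29, and 0.16 without KO_214. At an unadjusted p under 0.05, 2 of the 20 were higher (0.502% of all genes were) and 0 lower, and 0 passed adjustment. Of the 20, 0 were called without KO_214, WT_116 or WT_215, and 7 were higher without KO_218, among 0.983% of all genes. Serpinh1 (HSP47), the chaperone that binds the collagen helix in the endoplasmic reticulum, had 39.5, 68.0, 31.7 and 56.3 FPKM in the controls and 106, 148 and 49.9 FPKM in the Med23 CKO libraries. KO_214 and KO_117 were the 2 highest libraries, and KO_218 lay within the control range (log2 fold change 0.96, SE 0.41, exact permutation p = 0.143). P4ha1, a catalytic subunit of the prolyl hydroxylase that stabilises the helix, had 23.1, 25.8, 18.9 and 32.5 FPKM in the controls and 37.9, 54.6 and 28.4 FPKM in the Med23 CKO libraries. KO_214 and KO_117 were again the highest, and KO_218 lay below control WT_220 (log2 fold change 0.64, SE 0.27, exact permutation p = 0.0857). Both limma calls were near the threshold, with an unadjusted p of 0.0495 for Serpinh1 and 0.0485 for P4ha1. When single libraries were left out, each was kept in 2 of 7 fits, Serpinh1 without WT_213 or KO_218 and P4ha1 without WT_220 or KO_218. P4hb, the partner subunit of that enzyme, had 162 ± 17.0 FPKM across the controls (SD, n = 4) and 189 ± 46.9 FPKM across the Med23 CKO libraries (SD, n = 3) and Pdia3, a disulfide isomerase, 211 ± 49.8 FPKM across the controls (SD, n = 4) and 228 ± 43.9 FPKM across the Med23 CKO libraries (SD, n = 3).

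Most genes that act on secreted collagen were highest in KO_214, as the fibril and basement membrane genes were. Of 14 genes for procollagen processing and cross-linking, 11 were tested, 0 were higher or lower at an unadjusted p under 0.05, and 8 had their highest value in KO_214. Of all genes tested, 0.502% were higher and 0.996% lower, and 25.4% had their highest value in KO_214. With so few genes called in all, 0 calls in this or the next 2 lists does not set them apart. Bmp1, which cuts the end piece off procollagen, had 38.7 ± 2.57 FPKM across the controls (SD, n = 4) and 39.3 ± 15.9 FPKM across the Med23 CKO libraries (SD, n = 3), and Furin 11.9 ± 1.74 FPKM across the controls (SD, n = 4) and 14.9 ± 5.64 FPKM across the Med23 CKO libraries (SD, n = 3). Of 12 matrix proteins that bind collagen, all tested, 0 passed and 10 were highest in KO_214, of which Lum passed the filter only through that library. Sparc, a collagen-binding glycoprotein, had 165, 209, 133 and 89.7 FPKM in the controls and 56.2, 429 and 171 FPKM in the Med23 CKO libraries, and biglycan (Bgn) had 24.2, 49.8, 27.8 and 7.79 FPKM in the controls and 8.29, 227 and 47.6 FPKM in the Med23 CKO libraries. For both, KO_214 was highest and the groups overlapped. Of 10 genes for collagen degradation and its inhibitors, 0 passed and 9 were highest in KO_214. Of these, Mmp1a, Mmp8 and Mmp9 passed the filter only through KO_214, and 6 of the other 7 genes were highest there, among them the inhibitors Timp1 with 31.2 ± 9.56 FPKM across the controls (SD, n = 4) and 50.6 ± 59.1 FPKM across the Med23 CKO libraries (SD, n = 3) and Timp2 with 36.4 ± 5.23 FPKM across the controls (SD, n = 4) and 55.7 ± 41.8 FPKM across the Med23 CKO libraries (SD, n = 3).

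Among the genes listed as partners of collagen, a receptor was the one gene whose groups did not overlap. Of 11 receptor genes in the table, 8 were tested, and 2 were higher at an unadjusted p under 0.05 (0.502% of all genes were). Itgb1, the beta subunit of the collagen-binding integrins, had 129, 173, 162 and 151 FPKM in the controls and 222, 219 and 186 FPKM in the Med23 CKO libraries. Every Med23 CKO value was above every control value, as for 0.784% of all genes (log2 fold change 0.44, SE 0.17, exact permutation p = 0.0286, the smallest possible here; limma unadjusted p = 0.0298). The log2 fold change was 0.41 without KO_214, but the limma call was lost in 5 of 7 fits that left out a library and kept without WT_213 or KO_218. Itga1, the alpha subunit of a collagen IV-binding integrin, had 1.15, 3.08, 1.89 and 0.914 FPKM in the controls and 2.51, 8.79 and 4.78 FPKM in the Med23 CKO libraries. KO_214 and KO_218 were highest, and KO_117 lay below control WT_213 (log2 fold change 1.14, SE 0.41, exact permutation p = 0.0857). Its limma call was lost without WT_116, WT_220, KO_214 or KO_218. Neither gene passed adjustment over all genes. Adgrg1 (GPR56), a receptor for type III collagen in the developing brain, had 43.8, 60.4, 125 and 156 FPKM in the controls and 157, 34.7 and 42.7 FPKM in the Med23 CKO libraries. It was highest in KO_117, WT_220 and WT_215 and lowest in KO_214.

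The sums of the endothelial, mural and microglia markers were highest in KO_214, as the fibrillar, collagen IV and collagen VI sums were. The sums of the other marker lists were highest elsewhere. For the fibroblast list this depended on the measure, since Thy1 made up most of its sum in KO_117. The mean log2(FPKM + 1) of the fibroblast list was highest in KO_214 (2.98), followed by KO_218 (2.06). The fibrillar sum was second highest in WT_215, at 49.7 FPKM. Col11a1, which was highest in WT_215 and low in KO_214, held 16.6 FPKM of it. The endothelial sum of WT_215 was 15.0 FPKM, near the 15.4 FPKM of KO_117. By mean log2(FPKM + 1), the endothelial list was lower in KO_117 (1.03) than in WT_215 (1.18). The mural sum of WT_215 was 96.3 FPKM, within the range of the other controls. The highest of the 7 values was in KO_214 for 10 of 10 tested endothelial markers, 9 of 10 mural cell markers, 10 of 11 microglia and macrophage markers and 5 of 8 fibroblast markers. Of all genes tested, 25.4% were highest there. Tmem119 of the microglia list and Lum and Twist1 of the fibroblast list passed the filter only through KO_214, and without them the counts were 9 of 10 and 3 of 6. At an unadjusted p under 0.05, 0 genes of the endothelial, mural and microglia lists were higher or lower, and 1 of the fibroblast list was higher (0.502% of all genes were higher and 0.996% lower). That gene, Prrx1, a transcription factor of mesenchyme, had 7.54, 11.9, 8.35 and 6.95 FPKM in the controls and 17.5, 15.9 and 13.9 FPKM in the Med23 CKO libraries, with every Med23 CKO value above every control value, as for 0.784% of all genes (log2 fold change 0.81, SE 0.22, limma unadjusted p = 0.00686, exact permutation p = 0.0571). Its limma call was kept in all 7 fits that left out a library, but it did not pass adjustment over all genes. The lists of neuron markers (8 tested) and of choroid plexus and ependyma markers (4 of 7 tested) had 0 genes at that threshold, and the latter summed to 649 FPKM in WT_215 and to at most 70.5 FPKM elsewhere. The 8 oligodendrocyte lineage markers, all above 0 in every library and with 0 genes at that threshold, summed to between 2590.2 and 4641 FPKM in the controls and 2235, 2783 and 2670.0 FPKM in KO_117, KO_214 and KO_218, highest in WT_116 and lowest in KO_117. The fibroblast and neuron sums were highest in KO_117. The part of any of these cell types in the collagen levels was not tested.

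**Figure D5:**
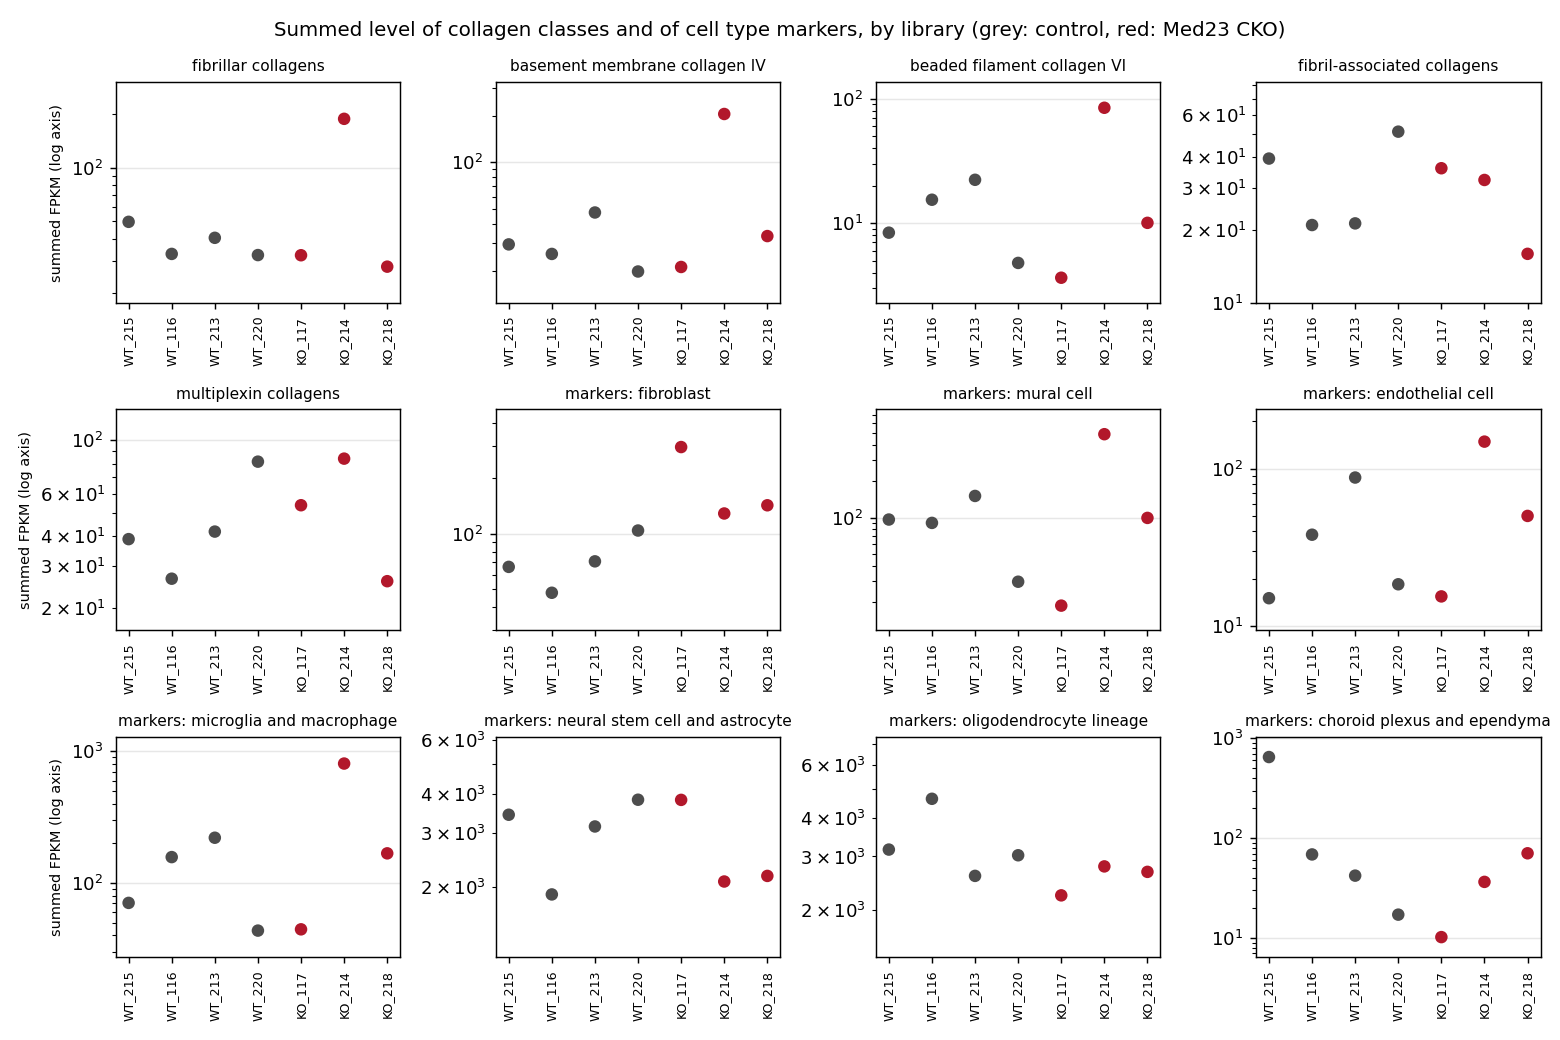
Summed FPKM (log axis) of 5 collagen classes and 7 lists of cell type markers in each library, control in grey and Med23 CKO in red. Fibrillar collagens, collagen IV, collagen VI and the mural, endothelial and microglia lists all have their highest sum in KO_214, whereas the sum of fibril-associated collagens is highest in WT_220.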

How the data were processed

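RNA of primary neurospheres was sequenced from 4 control and 3 Med23 CKO mice, 1 library per mouse, grouped by the titles and genotype labels. The authors removed adapters, aligned reads to mm10 with TopHat and calculated the deposited FPKM per gene with Cuffdiff. The file also holds group means and the authors' own fold changes, test scores, p-values and q-values, which were not used. Depth is unknown: low FPKM values (under 0.1) fell on no common step, the fullest bin of 0.05 log2 holding at most 8.02% of genes over 21 pairs of libraries. The number of libraries limits the precision.

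The values were tested as log2(FPKM + 1), pseudocount 1, for genes with a mean of at least 0.5 FPKM, by limma 3.58.1 (lmFit, eBayes with trend, R 4.3.3), two-sided, with Benjamini-Hochberg adjustment over all genes tested. Fold changes on this scale understate the change of low genes. The fit was checked on simulated data. Single genes were also tested by exact permutation of the group labels, 35 assignments in all. Alternatives were another pseudocount, other filters, quantile normalization, median centring, limma without trend, robust or with array weights (statmod 1.5.0), a covariate from the leading digit of the mouse numbers, each library left out, and the permutation test for all genes.

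The members and lists were chosen with earlier results of these data known. Per library values were to be given for Med23, the 2 highest genes of each class or partner list, and members or partner genes at an unadjusted p under 0.05 or with separated groups; Col1a1, Col1a2, Col3a1, Col6a3, Col9a2 and Thy1 were added after their values were seen. The ages given for tamoxifen differ between labels (2 months) and methods. Sequences are from RefSeq (GRCm38.p6) and GENCODE M21 (GRCm38, which is mm10), read with Python 3.11.15.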

Additional observations from a re-analysis of the deposited data

Results flagged for a closer look

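Among 35 genes whose 4 control values were screened on the log2 scale for a sample far from the others, 2 collagen genes were found. Chance gives about 1 in 20, so that 2 of 35 is near the number chance gives. Col26a1 had 0.402 FPKM in control WT_116 and between 2.26 and 2.82 FPKM in the other controls. Col5a2 had 1.07 FPKM in control WT_220 and between 6.47 and 7.29 FPKM in the other controls. The 3 Med23 CKO mice are too few for this screen, so that library KO_214 was not screened in its own group.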

How the results depend on the processing

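When single libraries were left out, 0 to 2 members were higher and 0 to 2 lower at an unadjusted p under 0.05, and the median log2 fold change of the members ranged from -0.26 to 0.55. With array weights, 2 members were lower, Col16a1 (-0.97) and Col26a1 (-1.18), where 6.27% of all genes were lower, the median over members was -0.13, and Med23 was lower at an unadjusted p under 0.05 (log2 fold change -0.43). In all other alternatives 0 members were higher and 0 lower. Over the 35 single genes, 47 of 592 refitted values had the opposite sign, 33 lost and 9 gained a p under 0.05, and 503 did neither. Array weights turned the sign of Col11a2 (-0.10), Col18a1 (-0.36), Col1a2 (-0.0511), Col28a1 (-0.0806), Col4a5 (-0.18), Col5a1 (-0.27), Col5a3 (-0.30), Col6a1 (-0.0922), Col6a2 (-0.18), Col6a3 (-0.0386) and Col8a1 (-0.13). Other settings did so for Col11a2 (-0.0255, pseudocount 0.1), Col27a1 (0.0098, median centring) and Col4a5 (-0.0508, pseudocount 0.1). Leaving out single libraries turned the sign for these members, whose log2 fold change then ranged as given: Col11a2 from -0.37 to 0.34, Col12a1 from -0.00406 to 1.03, Col15a1 from -0.30 to 0.82, Col18a1 from -0.20 to 0.60, Col1a2 from -0.52 to 1.91, Col20a1 from -0.13 to 0.0865, Col23a1 from -0.16 to 1.48, Col27a1 from -0.21 to 0.15, Col28a1 from -0.18 to 0.37, Col3a1 from -0.15 to 2.31, Col4a2 from -0.19 to 1.71, Col4a5 from -0.56 to 0.52, Col4a6 from -0.68 to 0.12, Col5a1 from -0.0267 to 1.09, Col5a2 from -0.22 to 1.78, Col5a3 from -0.18 to 0.55, Col6a1 from -0.67 to 1.08, Col6a2 from -0.63 to 1.23, Col6a3 from -0.47 to 1.59, Col7a1 from -0.34 to 0.17, Col8a1 from -0.45 to 1.38 and Col9a3 from -0.61 to 0.00114. For 19 of these 22 genes the lowest value was that without KO_214. The cause of these changes was not tested. No paired analysis was possible because the mouse numbers in the labels are not shared between the groups. Depth is unknown, so it sets no stated limit on low members.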
